A study of Mus musculus with 6 samples.

Results

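The expression of 32 genes that make cholesterol and fatty acids was followed in 6 mouse RNA-seq libraries. A list of 33 symbols was set, and a gene was kept when its symbol stood in all 3 deposited tables, which gave 32 of the 23889 genes measured. Hmgcs1 was not analysed here. The rule uses no measured value, although the list was drawn up with earlier results of these data known. By role, 3 genes supply acetyl-CoA or NADPH, 6 belong to the mevalonate pathway, 9 to the sterol pathway, 6 sense or carry sterols, 2 build the fatty acid chain and 6 elongate or desaturate it.

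The study profiled androgenetic haploid embryonic stem cells (AG-haESCs) beside other samples, per the design text. AG-haESCs carry a genome from sperm only. The labels describe MII oocytes of BDF1 mice aged 8 to 10 weeks, the hybrid of C57BL/6 females and DBA/2 males, which lost their spindle, received a sperm head, were activated with SrCl2 and grew to blastocysts. Each AG-haESC library came from a line of its own (A129-2, AOS-14 or AOS-16), 3 in all, labelled as F1 hybrid C57BL/6 X DBA/2. They were kept on feeder cells with 15% KSR, a serum replacement, and 2i (inhibitors of the kinases MEK and GSK3), and haploid cells in G0/G1 were collected by flow sorting. The single round sperm library has the same strain label, the cell type sperm and the same protocol text, so how its cells were obtained is not given. Of the ESC XX group there were 2 libraries of embryonic stem cells with an Oct-GFP (C57) background, grown in 15% fetal bovine serum with LIF and 2i and collected after feeder removal. Both stem cell groups were thus grown with 2i, and no library is an untreated control of another.

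Cholesterol and fatty acids are both built from cytosolic acetyl-CoA with NADPH as the reductant. Sterol synthesis runs through mevalonate, isoprenoid units and squalene to lanosterol, which is then trimmed and reduced to cholesterol, while malonyl-CoA feeds fatty acid synthase, and elongases and desaturases finish the chains. Many of these genes are targets of the SREBP transcription factors, which the escort protein Scap carries out of the endoplasmic reticulum when sterols are low and which Insig proteins hold back when sterols are high. In the testis, sterol intermediates that activate meiosis accumulate, and spermatids are known to express several of the genes from transcripts of their own.

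The deposited values are FPKM (fragments scaled to transcript length and library depth), which allow levels of different genes to be set side by side within a library. Estimated depth lay between 9.1 and 19.45 M (mega) fragments, and 11406 to 12515 genes reached 1 FPKM. The summed markers of pluripotent cells lay between 7567 and 7792 TPM (the values rescaled to the same total in each library) in the AG-haESCs and ESC XX and at 197 TPM in round sperm. Most of the round sperm sum was Klf4, at 176 TPM there. Klf4 was lower in the stem cells, at 91.2 to 164 TPM in the AG-haESCs and 151 and 150 TPM in ESC XX. Spermatid markers summed to 37835 TPM in round sperm and to at most 3.92 TPM elsewhere, and all 12 were detected there. Spermatocyte markers summed to 225 TPM in round sperm, 60.1 to 113 TPM in the AG-haESCs and 25.7 to 27.7 TPM in ESC XX, and those of Sertoli and Leydig cells to at most 9.23 TPM in every library. Not all spermatocyte markers followed their sum. In TPM, Hormad1 (25.8 to 46.9) and Dmc1 (5.27 to 7.90) were higher in every AG-haESC line than in round sperm (20.2 and 0.917). The FPKM total of round sperm was 1239220, against 507556 to 707325 elsewhere. Differences from round sperm are therefore given as deposited and, for some genes and lists, also at the same total. Of the FPKM total, 12.7% in AOS-14 and 6.26% in round sperm fell on genes shorter than 200 nt.

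All 32 genes were detected in all 6 libraries, and round sperm spread them far more widely than the stem cells did. In the 5 stem cell libraries the level ran from 2.96 FPKM (Hsd17b7, ESC XX 1) to 203 FPKM (Scd2, ESC XX 1), and no gene was under 2 FPKM. In round sperm it ran from 0.0198 FPKM (Scd1) to 515 FPKM (Fdft1), with 12 genes under 2 FPKM. The SD of log2(FPKM + 1) over the 32 genes was 2.43 in round sperm and 1.09 to 1.28 in the others. Fdft1, Me1, Sqle, Idi1, Fdps and Insig2 headed the order in round sperm, whereas Fdps, Acly and Scd2 were among the first 6 genes of every stem cell library. Together the genes made up 0.102% of the FPKM total in round sperm and 0.151% to 0.225% elsewhere.

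**Figure D1:**
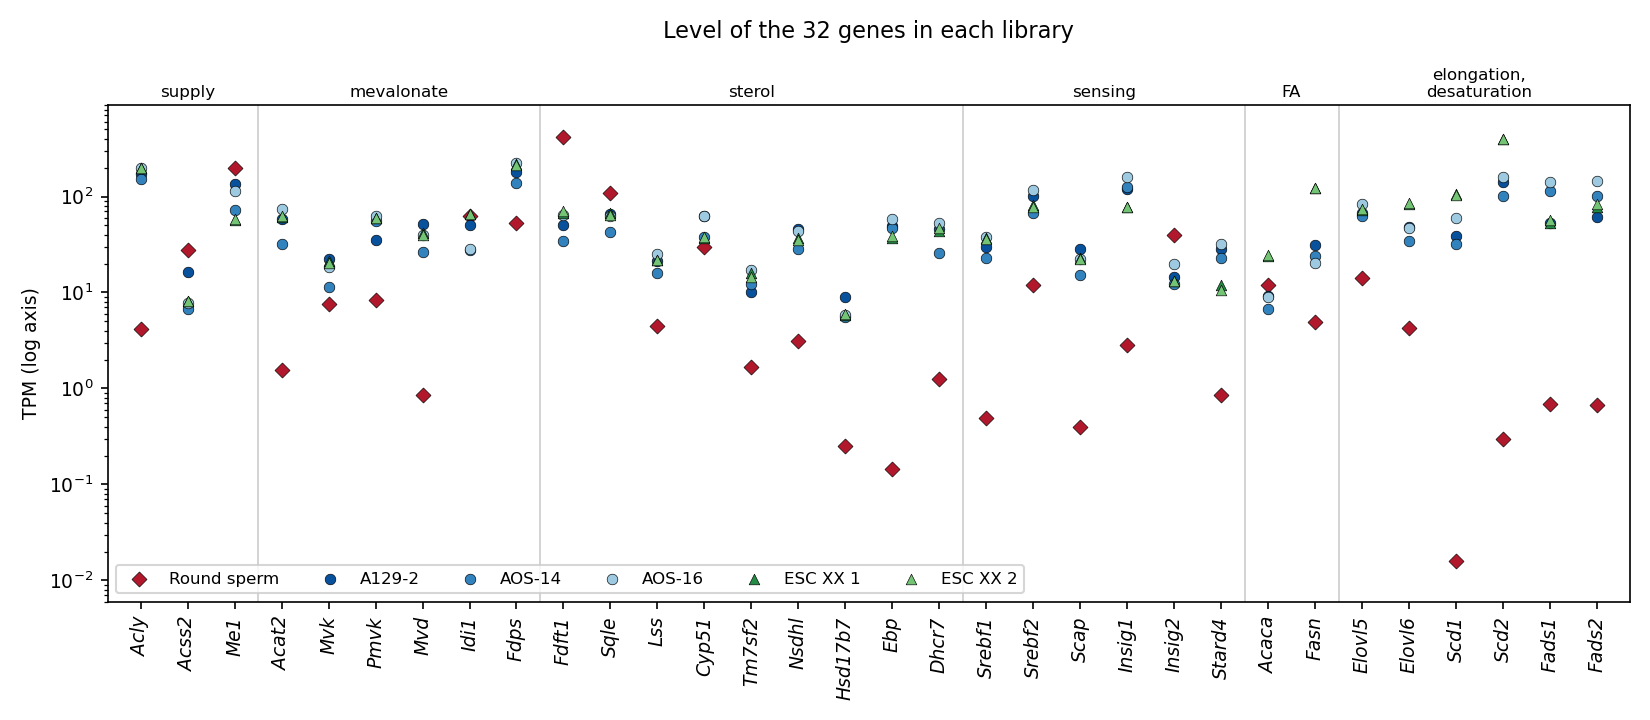
Level of each of the 32 genes, ordered by role along the x axis, in TPM on a log axis, with 1 point per library. Round sperm (diamonds) ranges from below to above the stem cell libraries, whose circles (AG-haESC lines) and triangles (ESC XX) mostly lie close together.

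Promoter windows, from 250 bases before to 50 after an annotated start, were found for 25 of the 32 genes in the RefSeq table for GRCm38.p6, another build than the mm9 of the files. Sqle, Fads1, Stard4, Fdft1, Scd2, Fdps and Scd1 had no entry. Of the 25 genes, 20 (80%) held a CCAAT box in a window on either strand, the letters read by NF-Y, against 41.1% of 27025 genes in the table and 43.0% of the 11913 that reached 1 FPKM in at least 1 library. The GC box GGGCGG was found in 20 of 25 genes (80%), against 38.2% and 62.1%. TGACG, the core of the cAMP response element (CRE), was found in 8 of 25 (32%), against 23.0% and 32.1%. The SREBP site letters TCACNCCAC were in the windows of 0 of 25 genes, against 1.44% and 1.47%, which says only that these exact letters are not there. Both strands were searched for all 4 motifs, and a gene was counted when any of its windows held the letters, so a match is a description and no proof of binding. Windows of 4 genes are printed because their values carry the comparisons: Insig1 (chr5:28071162-28071461, plus strand) and Insig2 (chr1:121332540-121332839, minus strand; the first of its 3 windows), which went opposite ways, Cyp51 (chr5:4104648-4104947, minus strand), whose level in round sperm was near that of the stem cells, and Fasn (chr11:120824498-120824797, minus strand), which differed most between the stem cell groups. Each runs 5′ to 3′ along the gene's strand, and capitals mark CCAAT and TGACG on either strand.
Insig1: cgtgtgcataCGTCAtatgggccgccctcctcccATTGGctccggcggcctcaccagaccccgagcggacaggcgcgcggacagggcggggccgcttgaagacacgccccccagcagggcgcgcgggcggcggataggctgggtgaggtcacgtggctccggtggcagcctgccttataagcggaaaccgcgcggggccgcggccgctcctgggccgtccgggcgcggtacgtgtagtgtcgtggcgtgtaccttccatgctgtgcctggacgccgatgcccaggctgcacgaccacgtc
Insig2: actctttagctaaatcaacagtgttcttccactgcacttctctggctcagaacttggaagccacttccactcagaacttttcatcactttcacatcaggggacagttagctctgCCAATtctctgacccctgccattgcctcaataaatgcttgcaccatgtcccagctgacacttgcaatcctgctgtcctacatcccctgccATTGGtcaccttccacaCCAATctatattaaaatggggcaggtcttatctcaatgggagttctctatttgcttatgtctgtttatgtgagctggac
Cyp51: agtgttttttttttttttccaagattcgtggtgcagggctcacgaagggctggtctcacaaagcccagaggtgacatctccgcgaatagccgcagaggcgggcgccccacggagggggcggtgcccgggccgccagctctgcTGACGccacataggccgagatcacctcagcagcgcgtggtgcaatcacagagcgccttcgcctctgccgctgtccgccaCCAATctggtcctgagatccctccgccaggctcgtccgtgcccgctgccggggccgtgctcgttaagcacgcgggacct
Fasn: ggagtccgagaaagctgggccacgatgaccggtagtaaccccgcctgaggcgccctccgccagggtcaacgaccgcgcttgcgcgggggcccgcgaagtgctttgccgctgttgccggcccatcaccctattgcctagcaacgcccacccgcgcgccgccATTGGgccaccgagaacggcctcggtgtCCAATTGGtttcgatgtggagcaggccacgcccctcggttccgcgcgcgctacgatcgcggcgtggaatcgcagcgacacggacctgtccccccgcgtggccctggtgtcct
Insig1 held 1 CCAAT box and 1 TGACG, Insig2 3 CCAAT boxes and no TGACG, and Cyp51 1 of each. Fasn held 3 CCAAT boxes, of which the last 2 overlap on opposite strands, and no TGACG.

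Compared with round sperm, AG-haESCs had higher levels of 18 of the 32 genes and lower levels of 7 (limma on log2(FPKM + 1), adjusted p under 0.05 and a log2 difference of at least 1). Of the 15938 genes tested, 22.8% were called higher and 39.1% lower. The median log2 difference of the 32 genes was 1.84, against -0.49 over all genes tested. A list of 10 housekeeping genes had a median of 2.19 in the same comparison, with 8 called higher and 1 lower, and 4 higher without AOS-16. All 32 passed the filter of 1 FPKM in at least 1 of the 4 libraries. At the same FPKM total the counts were 23 higher and 1 lower, with medians of 2.73 and 0.40, and the calls over all genes went from 36.8% to 52.1% higher. The 18 genes called higher remained so under each of 3 other scalings (the same total, the same with short genes left out, and quantile normalization), while of the 7 called lower only Fdft1 did, and all 7 kept their sign. Without AOS-14 there were 14 higher and 4 lower, and without AOS-16 16 and 4. Over all genes tested, calls fell too, from 3632 higher and 6232 lower to 2449 and 5332 without AOS-14. Without AOS-16 they were 2637 and 5243. With either line left out, calls were thus lost among all genes as well as among the 32. By share, the 32 genes lost more of their lower calls than all genes did, and fewer of their higher calls. The 7 lower calls are few for such a comparison. With 1 round sperm library, p-values measure only the spread between the AG-haESC lines. Of 12 feeder fibroblast markers 1 was called higher in AG-haESCs (Vim) and none lower, and without A129-2 7 of 11 were higher. Their sum was 248 to 401 TPM in the lines and 17.3 TPM in round sperm, and their part in the values was not tested. In such bulk samples, fewer cells of a type and less RNA per cell cannot be told apart.

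**Figure D2:**
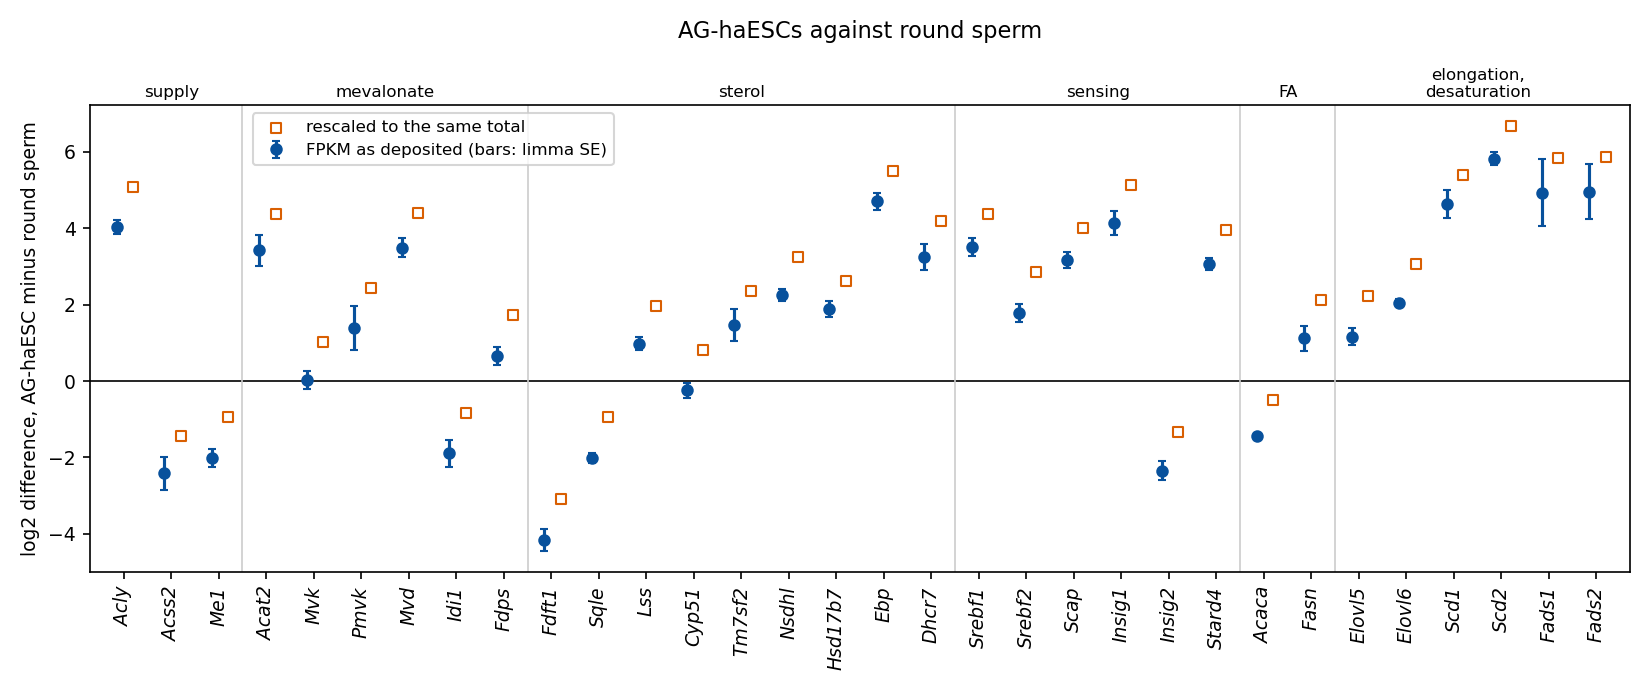
Log2 difference of each gene, AG-haESC mean minus round sperm, on the log2(FPKM + 1) scale, as deposited (circles, bars are the limma SE) and with libraries rescaled to the same total (squares). As deposited, Acly, Ebp, Insig1, Scd1, Scd2, Fads1 and Fads2 stand above 4 and Fdft1 stands lowest at -4.15, and rescaling moves every gene up.

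As deposited, the acetyl-CoA suppliers Acly and Acss2 differed from round sperm in opposite directions. Acly, which makes cytosolic acetyl-CoA from citrate, was at 87.7, 107 and 107 FPKM in A129-2, AOS-14 and AOS-16 and at 5.16 FPKM in round sperm. All 3 lines lay far above round sperm, a log2 difference of 4.04 ± 0.18 (SE, limma, adjusted p = 0.00165). Acss2, which makes acetyl-CoA from acetate, was at 8.34, 4.74 and 4.30 FPKM in the lines and at 34.2 FPKM in round sperm. Round sperm was above every line, a log2 difference of -2.42 ± 0.44 (limma, adjusted p = 0.0263). Me1, the malic enzyme that yields NADPH, was at 68.5, 50.9 and 61.9 FPKM in the lines and at 245 FPKM in round sperm, the second highest of the 32 genes there. It was lower in AG-haESCs by limma, at -2.02 ± 0.22 (adjusted p = 0.00955). Neither lower call held at the same total, where the differences were -1.43 for Acss2 and -0.94 for Me1. The call of Acss2 was also lost without AOS-14 (limma, adjusted p = 0.107) or AOS-16 (0.0842), and that of Me1 without AOS-16 (0.0558). Of the Me1 transcript's 50-base words, 26.5% also occur in other genes, Gm7049 and Gm7329.

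Of the 6 mevalonate genes, Acat2 and Mvd were called higher in AG-haESCs and Idi1 lower. Acat2, the cytosolic thiolase that joins acetyl-CoA units, was at 29.96, 22.6 and 40.5 FPKM in the lines and 1.91 FPKM in round sperm, and Mvd, the mevalonate diphosphate decarboxylase, was at 26.6, 18.8 and 21.7 against 1.06 FPKM. Both were higher in every line, Acat2 by 3.42 ± 0.41 (limma, adjusted p = 0.0110) and Mvd by 3.49 ± 0.25 (adjusted p = 0.00408). Without A129-2 the adjusted p of Acat2 was 0.0528 by limma. Acat3, a near copy of Acat2 that shares 45.9% of its 50-base words and was looked up after its value was seen, stood at 276 FPKM in round sperm and 23.7 to 34.4 FPKM in the lines. Idi1, which isomerises isopentenyl diphosphate, shares 21.3% of its 50-base words with 4 other genes. It was at 25.6, 19.7 and 15.6 FPKM in the lines and 76.8 FPKM in round sperm. It was lower in AG-haESCs by limma, at -1.90 ± 0.34 (adjusted p = 0.0259), and the difference was -0.84 at the same total. Without AOS-14 or AOS-16 its limma adjusted p was 0.111 or 0.0578. The remaining 3 genes passed no threshold as deposited. Mvk, mevalonate kinase, had 11.4, 8.08 and 9.96 FPKM in the lines, on both sides of the 9.51 FPKM of round sperm. Pmvk, the next kinase, differed by 1.40 ± 0.57 (limma, adjusted p = 0.129) and, without A129-2, by 1.73 (0.0282). Fdps, which makes farnesyl diphosphate, differed by 0.64 ± 0.24 (limma, adjusted p = 0.104), and 86.4% of its words occur in 8 other genes, pseudogenes among them, so its level is uncertain. At the same total, Pmvk (2.44) and Fdps (1.73) were called higher.

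The sterol pathway held both the most abundant of the genes in round sperm and several of the least abundant. Fdft1, squalene synthase, which commits isoprenoids to sterols, was at 25.8, 24.2 and 35.2 FPKM in the lines and 515 FPKM in round sperm. Round sperm exceeded every line many times over, a log2 difference of -4.15 ± 0.29 (limma, adjusted p = 0.00377) as deposited and -3.08 at the same total (limma, adjusted p = 0.0174). Sqle, the squalene epoxidase of the next step, was at 33.4, 30.2 and 34.4 FPKM against 135 FPKM. All lines were below round sperm, at -2.01 ± 0.12 (limma, adjusted p = 0.00295), but at the same total the difference was -0.94 and not called. Lss, which closes the ring to lanosterol, did not follow them, with 10.9, 11.3 and 13.7 FPKM in the lines and 5.53 FPKM in round sperm. Its difference of 0.98 ± 0.18 missed the bound of 1, and at the same total it was 1.97 and called (limma, adjusted p = 0.0226).

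Of the enzymes after lanosterol, only Cyp51 and Tm7sf2 were not called higher in AG-haESCs. Cyp51, the lanosterol demethylase, was at 32.01, 26.6 and 34.1 FPKM in the lines and at 36.5 FPKM in round sperm, a little above all 3. The difference was -0.24 ± 0.20 (limma, adjusted p = 0.353) and turned to 0.82 at the same total, so no direction can be given. Tm7sf2, a sterol reductase, was at 5.10, 8.63 and 9.46 FPKM against 2.08 FPKM, a difference of 1.46 ± 0.42 (limma, adjusted p = 0.0657), which passed without A129-2 (0.0184) and at the same total (0.0222). Nsdhl, a dehydrogenase that removes a methyl carbon, was at 19.9 to 23.8 FPKM in the lines and 3.91 FPKM in round sperm (2.24 ± 0.16, limma, adjusted p = 0.00378). Hsd17b7, the ketoreductase of the same complex, was at 3.19 to 4.57 FPKM against 0.314 FPKM (1.89 ± 0.21, limma, adjusted p = 0.00963), and lost the call without AOS-14 (0.0614). Ebp, the sterol isomerase, was at 24.9, 32.8 and 31.9 FPKM in the lines and 0.179 FPKM in round sperm. This was about 3 fragments there, so the fitted difference of 4.70 ± 0.22 (limma, adjusted p = 0.00186) depends on the added 1 and no fold is given. Dhcr7, the reductase of a final step, was at 18.2 to 29.2 FPKM against 1.54 FPKM (3.25 ± 0.33, limma, adjusted p = 0.00809). Nsdhl and Ebp lie on the X chromosome, where 45.3% of the 673 genes tested were called higher in AG-haESCs.

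The Insig genes, which retain Scap in the endoplasmic reticulum, ran opposite ways. Insig1 was at 61.3, 87.8 and 88.0 FPKM in the lines and 3.49 FPKM in round sperm, whereas Insig2 was at 7.45, 8.63 and 10.7 FPKM in the lines and 49.2 FPKM in round sperm. For both the lines lay wholly on 1 side of round sperm, with differences of 4.14 ± 0.30 for Insig1 (limma, adjusted p = 0.00420) and -2.35 ± 0.25 for Insig2 (limma, adjusted p = 0.00863). The lower call of Insig2 was lost at the same total (-1.33, limma, adjusted p = 0.0527) and without AOS-14 (0.0579). Srebf2, the SREBP gene best known for sterol targets, was at 51.9, 47.1 and 64.1 FPKM against 14.9 FPKM, and Srebf1, best known for fatty acid targets, was at 15.0, 16.3 and 20.9 against 0.604 FPKM. Both were higher in every line, by 1.79 ± 0.23 (limma, adjusted p = 0.0131; 0.0556 without A129-2) and 3.51 ± 0.25 (adjusted p = 0.00391). Scap, their escort, was at 10.7 to 14.3 FPKM in the lines and 0.489 FPKM in round sperm (3.16 ± 0.21, limma, adjusted p = 0.00347). Stard4, a sterol carrier, was at 14.5, 16.2 and 17.7 FPKM against 1.05 FPKM (3.06 ± 0.16, limma, adjusted p = 0.00222).

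The enzymes that build the fatty acid chain went different ways from each other. Acaca, which makes malonyl-CoA, was at 4.65, 4.72 and 4.93 FPKM in the lines and 14.8 FPKM in round sperm, above all of them. The difference was -1.45 ± 0.09 (limma, adjusted p = 0.00337) as deposited and -0.49 without a call at the same total, and 52.6% of its words also occur in Gm5182. Fasn, fatty acid synthase, was at 15.9, 17.2 and 11.1 FPKM against 6.16 FPKM, a difference of 1.12 ± 0.32 that passed at the same total (2.12, limma, adjusted p = 0.0184) and without AOS-16 (1.29, 0.0363) but not as deposited (0.0654).

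All 6 elongases and desaturases were called higher in AG-haESCs, and 3 without AOS-14 or without AOS-16. Scd2, a desaturase that makes monounsaturated chains, was at 72.7, 71.1 and 86.4 FPKM in the lines and 0.367 FPKM in round sperm (5.82 ± 0.17, limma, adjusted p = 0.000705). Scd1, its paralog, was at 19.6, 22.9 and 32.4 FPKM against 0.0198 FPKM, about 1 fragment, so again no fold is read from its 4.64 ± 0.36 (limma, adjusted p = 0.00472). Fads1 and Fads2, the desaturases of polyunsaturated chains, were at 26.7, 80.2 and 78.2 and at 31.2, 71.5 and 79.3 FPKM in A129-2, AOS-14 and AOS-16, against 0.845 and 0.843 FPKM in round sperm. Their differences were 4.93 ± 0.87 (limma, adjusted p = 0.0245) and 4.96 ± 0.72 (adjusted p = 0.0161), the widest errors of the set. Neither call held without AOS-14 (limma, adjusted p = 0.0963 and 0.0796) or AOS-16 (0.0888 and 0.0625). Elovl6, which lengthens palmitate, was at 24.04 to 25.7 FPKM against 5.23 FPKM (2.05 ± 0.09, limma, adjusted p = 0.00175). Elovl5, which lengthens polyunsaturated chains, was at 34.3 to 45.5 against 17.7 FPKM (1.16 ± 0.23, limma, adjusted p = 0.0299) and lost the call without AOS-14 (0.114) or AOS-16 (0.0974).

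Ratios between related genes within a library do not depend on its scaling, and several of them set round sperm apart from all 5 stem cell libraries. The ratio of Insig2 to Insig1 was 14.1 in round sperm and 0.0983 to 0.171 elsewhere, and that of Acss2 to Acly 6.63 against 0.0401 to 0.0951. Acat3 to Acat2 stood at 145 in round sperm against 0.586 to 1.52. Srebf2 to Srebf1 was 24.6 against 2.19 to 3.45, and Fdft1 to Lss 93.0 against 2.14 to 3.26. Only in the ratio of Fasn to Acaca was round sperm lower, at 0.417 against 2.25 to 5.11. Fads2 to Fads1, at 0.998, lay within the range of the others, 0.891 to 1.46. With 1 library of round sperm these ratios have no replicate check, and the pairs were chosen with the levels known.

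**Figure D3:**
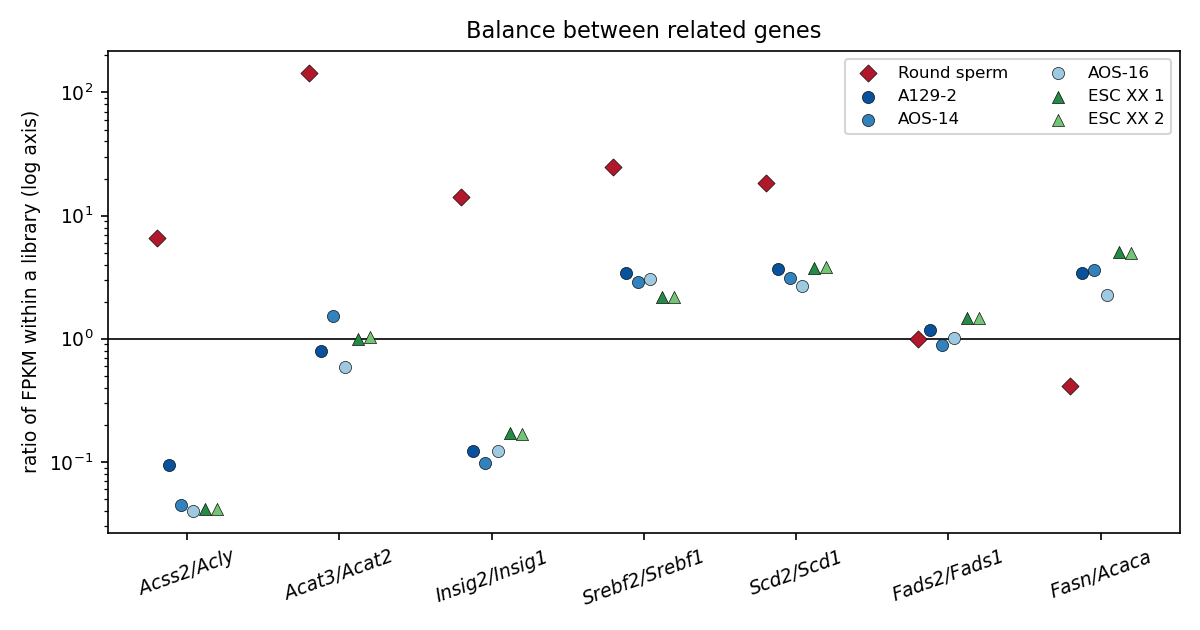
Ratio of FPKM between related genes within each library, on a log axis, with 1 point per library. Round sperm (diamonds) is outside the range of the AG-haESC lines (circles) and ESC XX (triangles) in each pair but Fads2/Fads1. The Scd2/Scd1 ratio of round sperm rests on about 1 fragment of Scd1, so it is not read.

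Other genes of the same pathways were read beside the 32, against 22.8% of all genes called higher and 39.1% lower as deposited, and 30.5% and 28.1% at the same total. Of 14 tested genes of cholesterol synthesis, uptake and SREBP processing, 8 (57.1%) were higher in AG-haESCs than in round sperm and none lower, with a median log2 difference of 2.01, and without AOS-16 5 were higher. Among them was Msmo1, a sterol methyl oxidase (4.83 ± 0.49, limma, adjusted p = 0.00787). Of 6 genes of LXR signalling and cholesterol efflux, Mylip (1.56) and Abca1 (1.14) were higher and Nr1h3 (-4.16), Lpcat3 (-3.21) and Rxra (-1.13) lower by limma. The call of Rxra was lost at the same total (-0.19) and without AOS-14 or AOS-16 (limma, adjusted p = 0.110 in both), and Abca1 was not called without A129-2 (limma, adjusted p = 0.0812) or AOS-16 (0.0701). Of 9 users of isoprenoids, 4 (44.4%) were higher and none lower, led by Rabggtb (3.25), Pdss1 (3.02) and Fntb (2.67), and without AOS-14 2 were higher. Fntb was not called without AOS-14 (limma, adjusted p = 0.0603), nor Pdss1 without AOS-16 (0.0556).

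Fatty acid genes outside the 32 were called in both directions, with shares lower that were near the 39.1% of all genes for synthesis and oxidation. Of 17 tested genes of fatty acid synthesis and activation, 6 (35.3%) were higher and 6 (35.3%) lower by limma, and 9 and 3 at the same total and 3 and 3 without AOS-16. The acyl-CoA ligase Acsl6 (-6.47), the elongase Elovl2 (-5.50) and the ligase Acsl1 (-3.99) were the lowest, and Hsd17b12 (4.31), Acsl4 (3.34) and Elovl1 (2.27) the highest. Acsl1 was not called at the same total (limma, adjusted p = 0.0671), without AOS-14 (0.0894) or without AOS-16 (0.0804), and Acsl4 not without AOS-16 (0.0669). In fatty acid oxidation, 8 of 18 (44.4%) were higher and 7 (38.9%) lower, and at the same total 11 and 4. Crat (-7.27), Cpt1b (-7.26) and Hadha (-3.30) were lower, and Hadh (5.55), Acadm (5.25) and Eci1 (4.77) higher, the last not without AOS-14 (limma, adjusted p = 0.0617) or AOS-16 (0.0533). Of 8 lipid storage genes, 2 (25%) were higher, Plin3 (1.78) and Fitm2 (1.57), and 5 (62.5%) lower, led by Dgat2 (-5.69), Pnpla2 (-4.63) and Lipe (-4.40). Without AOS-14 the counts were 1 and 4, and without AOS-16 they were 1 and 3, with Dgat2 (limma, adjusted p = 0.0513) and Fitm2 (0.0980) no longer called, and without AOS-14 Plin3 was not (0.0589).

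Between the stem cells, no mevalonate or sterol gene passed the bounds used, while Fasn, Acaca, Scd1 and Scd2 were lower in AG-haESCs than in ESC XX and Stard4 was higher. The tables were normalized separately, so no test was run. Values were rescaled to TPM and the median difference of 13172 genes was removed from the log2(TPM + 1) differences. A gene was called when group means differed by at least 1 and the ranges of the AG-haESC lines and ESC XX did not overlap. Past these bounds 1 of the 32 genes was higher and 4 were lower, against 7.37% and 8.28% of all genes compared. In either direction 15.6% of all genes passed, and the genes named above are about that share of the 32. The median of the 32 genes was -0.05. Of the 32, 12 (37.5%) did not overlap between the groups, against 50.6% of all genes. None of the 15 mevalonate and sterol genes passed, with differences from -0.83 (Idi1) to 0.60 (Cyp51).

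Fasn differed most. It stood at 31.3, 24.3 and 20.3 TPM in A129-2, AOS-14 and AOS-16 and at 124 and 123 TPM in ESC XX, a log2 difference of -2.17 ± 0.30 (SD over the 3 lines). Every line was far below both ESC XX libraries. Acaca was at 9.14, 6.67 and 9.02 TPM against 24.3 and 24.8 TPM (-1.38 ± 0.23), so both enzymes of chain synthesis were lower together. Scd2 was at 143, 100.5 and 158 TPM against 399.8 and 395 TPM (-1.49 ± 0.34), and Scd1 at 38.5, 32.3 and 59.2 against 106 and 104 TPM (-1.21 ± 0.44). Elovl6, at 33.99 to 48.5 TPM against 84.2 and 85.4 TPM, lay below without reaching the bound (-0.88 ± 0.28). Elovl5, Fads1 and Fads2 overlapped between the groups, so the fatty acid genes did not all go the same way. In sum over Acaca and Fasn the level was 29.3 to 40.4 TPM in AG-haESCs and 148 TPM in each ESC XX library, and 16.9 TPM in round sperm.

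Stard4, the sterol carrier, was the 1 gene past the bound in the other direction, at 28.5, 22.9 and 32.4 TPM against 12.0 and 10.5 TPM (1.33 ± 0.24). Every line was above both ESC XX libraries. Me1 (0.93 ± 0.46) and Insig1 (0.87 ± 0.23) also lay above in all lines without reaching the bound. Insig1 was at 120.3, 124 and 161 TPM against 77.7 and 78.2 TPM. The same 5 genes passed in each alternative of scaling, pseudocount and filter that was run. Without A129-2, Fads1 and Insig1 were also higher and Idi1 lower, and without AOS-14 Me1 was also higher. Of the other lipid gene lists, Abca1 (-1.88) was lower, and Thrsp (1.78), Dgat2 (1.18), Elovl4 (1.15) and Elovl7 (1.10) were higher in AG-haESCs. These were 1 of 6 genes compared for LXR and efflux, 3 of 17 for fatty acid synthesis and activation and 1 of 8 for lipid storage. None passed of 14 cholesterol, 17 oxidation and 9 isoprenoid genes, against 7.37% higher and 8.28% lower over all genes. Thrsp rests on about 6 and 23 fragments in ESC XX.

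Markers of feeder fibroblasts moved with this comparison. Of 12 such markers 11 were lower in AG-haESCs past the same bounds. None was at 0 in every library of a group, although Lum was at 0 in A129-2. The markers summed to 248 to 401 TPM in AG-haESCs, 3065 and 3070 TPM in ESC XX and 17.3 TPM in round sperm. Their part in the lower Fasn, Acaca and Scd levels was not tested. Serum, strain, sorting and table also differ between the groups and cannot be told apart from the cell type. Nothing in the labels says that the 2 ESC XX libraries are separate cultures, so their small spread may be technical.

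**Figure D4:**
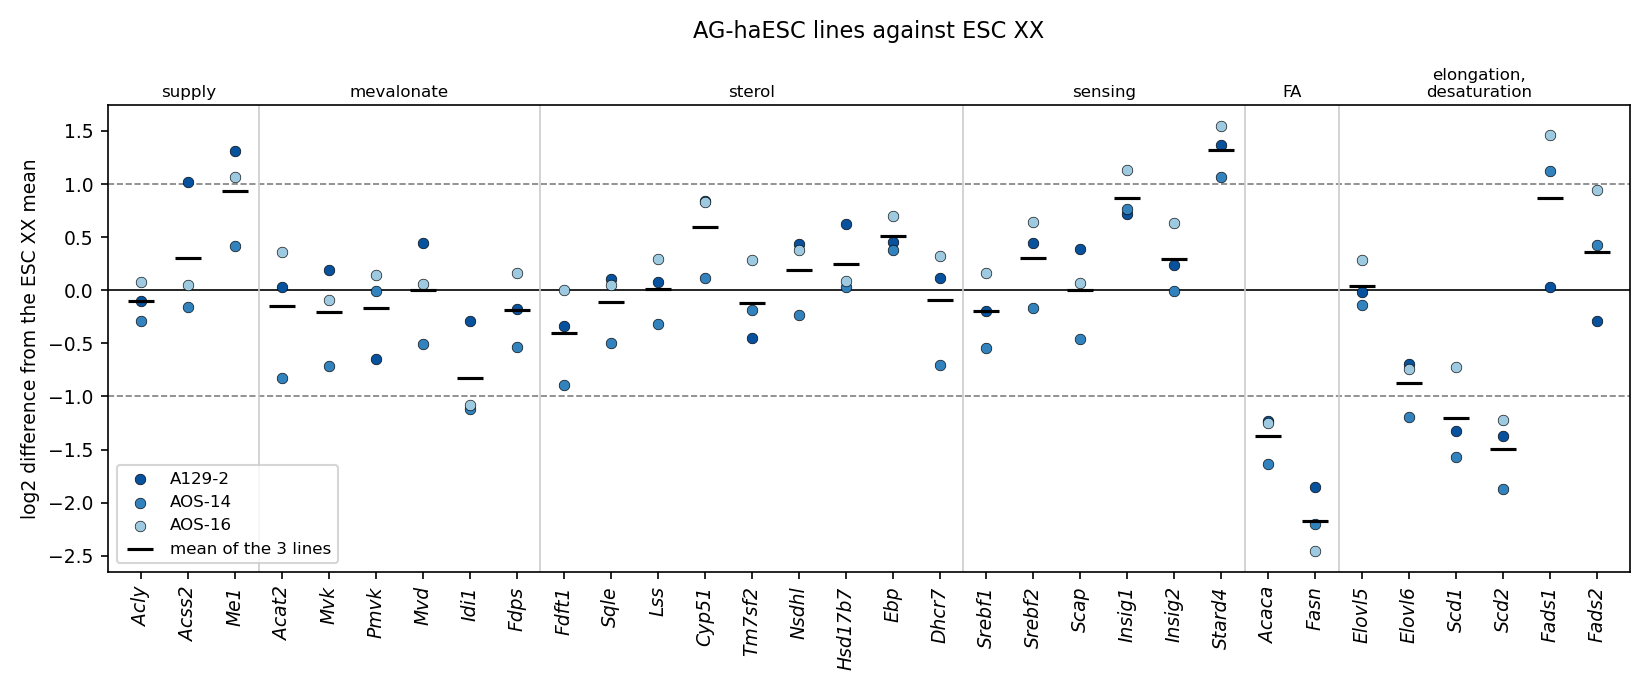
Log2 difference of each AG-haESC line from the ESC XX mean on the log2(TPM + 1) scale, with the median difference of all genes removed. Points are lines, bars the mean of the 3 lines and dashed lines the bound of 1. Acaca, Fasn, Scd1 and Scd2 have means below the lower bound and Stard4 above the upper.

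Round sperm set against ESC XX, a comparison that shares libraries with both others, gave these values by size alone. The median difference of all genes, -0.50 on the log2(TPM + 1) scale, was removed first. Of the 32 genes 5 were past a log2 difference of 1 above ESC XX and 23 below, against 39.2% and 38.2% of 15640 genes. The 5 were Fdft1 (3.08), Me1 (2.27), Acss2 (2.14), Insig2 (2.02) and Sqle (1.23). Sqle was not past it without the filter, with the median kept or with quantile normalization. Idi1 (0.41) and Cyp51 (0.18) stood near the ESC XX level, and before the median was removed both lay below it. In TPM, Idi1 was at 62.0 in round sperm against 66.0 and 65.9, and Cyp51 at 29.5 against 36.7 and 37.7. On this scale the largest differences below were those of Scd2 (-7.76), Scd1 (-6.20) and Fads2 (-5.10). Their order depends on the added 1, and Scd1 rests on about 1 fragment in round sperm, so no order of folds is read. Fasn was at 4.97 TPM in round sperm, a difference of -3.88 from ESC XX.

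Among the AG-haESC lines few of the genes were past a log2 difference of 1. In TPM, 27 of the 32 were higher in A129-2 than in AOS-14, and 1 was higher in AOS-14 than in AOS-16. The median differences of the 32 were 0.45 and -0.54, against 0.34 and -0.27 over all genes. The counts were 24 and 4 with short genes left out, 21 and 5 with quantile normalization, and 16 and 8 as FPKM. Between A129-2 and AOS-14, 2 of the 32 differed by at least 1 on the log2(TPM + 1) scale, against 21.2% of 12637 genes, with Acss2 higher in A129-2 (16.4 against 6.70 TPM) and Fads1 lower (52.5 against 113 TPM). On the log2(FPKM + 1) scale Acss2 was not past this bound, and Fads2 and Pmvk were, lower in A129-2. Between A129-2 and AOS-16 it was again 2 (15.8% of all), Fads1 (52.5 against 143 TPM) and Fads2 (61.2 against 145 TPM), both lower in A129-2. Acss2, at 16.4 against 7.86 TPM, fell just short of the bound and passed it with a pseudocount of 0.1. Fads1 in A129-2 was thus close to ESC XX, at 53.3 and 56.8 TPM, and the AOS lines stood above. Between AOS-14 and AOS-16, Acat2 and Dhcr7 were lower in AOS-14 (11.2% of all genes), but none of the 32 was past the bound as FPKM. Mvd lies on chromosome 8, where A129-2 exceeded the AOS lines by a median log2 difference of 0.93 over 475 genes, relative to the other autosomes, and Mvd itself by 0.49. With 1 library per line these differences have no replicate check.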

How the data were processed

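PolyA RNA of 6 mouse libraries was sequenced with a stranded KAPA mRNA kit, per the labels. The submitters' processing notes name TopHat2 2.0.13, Cuffdiff 2.2.1 and the genome build mm9. The deposited values were read as FPKM, the unit named in the ESC XX tables. The header of the table of the other 4 libraries names none, and its unit was taken from the tool and the values. ESC XX came in tables of their own. Tool settings are not given in the sources used. The 32 genes, the roles and the other lists were chosen with earlier results of these data known.

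AG-haESCs and round sperm were compared with limma 3.58.1 in R 4.3.3 (trend, 2 residual degrees of freedom) on log2(FPKM + 1), two-sided, with Benjamini-Hochberg adjustment over 15938 genes reaching 1 FPKM in at least 1 of the 4 libraries. This scale understates the change of low genes. Comparisons with ESC XX and between lines used size and overlap on log2(TPM + 1). Every listed gene is named, and of each other list up to 3 called genes in each direction, apart from some that are not reported here. Eef1a1 and Rn45s are listed at 0 in every AG-haESC library, so a 0 can be a failed estimate. Depth was estimated from the steps of low FPKM in 3299 genes with 1 transcript and is approximate, and counts were not recovered. Shared 50-base words, chromosomes and lengths came from a GRCm38 annotation by symbol. Alternatives were another pseudocount (0.1), no filter, 3 other scalings, limma without the trend and each line left out. The scripts were tested on simulated data.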

Additional observations from a re-analysis of the deposited data

How the results depend on the processing

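Against round sperm, the count of genes called lower was 7 as deposited, 1 at the same total, 2 with short genes also left out, 1 with quantile normalization, and 4 to 7 with a line left out. The count called higher stayed within 1.5 times of 18 in all 9 alternatives, and 12 of the 18 genes were called in each. Cyp51 turned from -0.24 to 0.82 at the same total, 0.80 with short genes left out and 1.06 with quantile normalization, and Mvk went from 0.03 to between -0.0751 and 0.15 with a line left out, the lowest without A129-2. Against ESC XX, 1 to 3 genes were past the bounds above with a library left out. Between AOS-14 and AOS-16 the 2 genes apart became 0 as FPKM, 0 with short genes left out and 0 with quantile normalization, and between A129-2 and AOS-14 2 became 1 with quantile normalization. The cause of these changes was not tested. Depth limits Scd1 and Ebp in round sperm, which rest on about 1 and 3 fragments. No paired analysis was possible because the replicate numbers in the labels belong to the ESC XX libraries alone and no other group shares them.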
